A study of Mus musculus with 8 samples.

Results

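The genes described here are 33 that bring fatty acids into the heart cell and burn them in mitochondria and peroxisomes, together with the enzymes that set malonyl-CoA and the transcription factors and coactivators that drive the pathway. They were listed by name and not by a cutoff on measured values, but earlier results of these data were known when they were chosen. Each of the 33 symbols matched 1 gene identifier of the deposited table, and all 33 were among the 17636 genes tested, out of 55487 identifiers. Their lowest count in any library was 214. RNA was taken from mouse hearts of 2 genotypes. Wild-type animals are called WT, and animals with Set7 knocked out in the whole body, bred from heterozygous crosses, Set7KO. Set7, encoded by Setd7, is a methyltransferase of histone and other proteins. Mice received subcutaneous saline or isoproterenol (60 mg/kg) over 14 days. Isoproterenol activates beta-adrenergic receptors and, given for long, makes the mouse heart hypertrophy. Each of the 4 groups (WT saline, WT isoproterenol, Set7KO saline, Set7KO isoproterenol) held 2 libraries of 27847069 to 51705705 counts. Whether the libraries of a group stem from different animals is not stated, so the spread behind every p-value is only that among these samples and may be technical.

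Fatty acids are the main fuel of the adult heart. Lipoprotein lipase frees them from circulating lipoproteins, membrane carriers and a cytosolic binding protein take them up, and acyl-CoA synthetase traps them as thioesters. The carnitine shuttle then moves the acyl groups into the mitochondrial matrix, where dehydrogenases, hydratases and thiolases cut them to acetyl-CoA and hand electrons to the respiratory chain through electron transfer flavoprotein. Malonyl-CoA blocks the entry step, and the PPAR nuclear receptors with their PGC-1 coactivators drive transcription of many of these genes. Lower expression of the pathway is a textbook feature of the hypertrophied heart.

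Setd7 stood at 43.0 to 72.6 CPM (normalised CPM, counts scaled to effective library size) in the 4 WT libraries and at 3.79 to 5.70 CPM in the 4 Set7KO libraries, so the genotype labels hold. The libraries did not separate by group alone. The first principal component, with 45.4% of the variance, set both WT isoproterenol libraries and Set7KO saline replicate 2 (scores 58.6 to 67.3) apart from the other 5 (-71.7 to -19.0). The same 3 libraries had lower relative counts of GC-rich than of GC-poor genes. The median log2 deviation of the highest GC class minus that of the lowest was -1.08 to -0.78 in them and 0.19 to 0.85 in the other 5. Every contrast is therefore given also from a fit with offsets for GC content and length. The Set7KO saline replicates correlated at r = 0.949 across genes, and the replicate pairs of the other groups at 0.968 to 0.984. The titles carry a letter whose meaning is not stated, 1 per group, except that Set7KO saline replicate 2 carries the letter of the WT saline libraries. They also carry a number of unstated meaning before the letter. It is higher in the 3 libraries with fewer counts of GC-rich genes than in any of the other 5. Whether it stands for an order of handling is not known.

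Divided by exon length, Fabp3, the heart-type fatty acid binding protein, had the highest level of the 33 genes, at 4078 ± 1370.2 CPM per kb (SD over 8 libraries). It made up 44.5% of their summed level per kb of exon union. That share is lower when the longest transcript is the length, since Fabp3 stays at 4078 and most other genes rise. Etfb (916 ± 306 CPM per kb) and the thiolase gene Acaa2 (864 ± 288 CPM per kb) came next and did not differ beyond their spread, followed by Acadvl (613 ± 122), Acadl (345 ± 77.1) and Cpt1b (286 ± 76.5). At the other end lay Ehhadh, a peroxisomal bifunctional enzyme (3.73 ± 0.958 CPM per kb), the coactivator Ppargc1b (4.02 ± 1.08), the receptor Ppard (6.04 ± 1.43), the coactivator Ppargc1a (6.17 ± 5.58), Cpt1a (6.64 ± 1.58) and the receptor Ppara (7.18 ± 3.70). These last 4 overlapped within their SDs. Divided by the longest transcript instead, the first 4 genes and the set of the last 6 were the same, but Hadha (389 CPM per kb) and Lpl (349) took the fifth and the seventh place and Cpt1b (333) the ninth. Enzymes of the matrix thus took most of the first places and all 4 regulators lay among the last 6. In the annotation, exons of 2 further genes share the strand of a member's exons. Gm44502 covers 81.4% of the Cpt1b exon bases and had 0.807 to 8.19% as many counts as Cpt1b. Gm45233 covers 53.0% of those of Etfb and had 6.39 to 9.02% as many counts, so the split of reads within these pairs is uncertain.

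Promoter windows of RefSeq (GRCm38.p6, 250 bases before to 50 after a start) were at hand for 27 of the 33 genes, in 30 windows. The letters AGGTCA, the half-site bound by PPAR, RXR and related receptors, were searched on both strands. They occurred in 6 of the 30 windows (20%), those of Acacb, Acadm, Acadvl, Cd36, Cpt1a and Echs1, and in 16.3% of all 32851 windows. AGGTCA repeated after 1 base, the spacing bound by PPAR with RXR, was in none of the 30 and in 0.0396% of all windows. The longer TCAAGGTCA, the site of estrogen-related receptors, which contains AGGTCA, was in none of the 30 and in 0.423% of all. The E-box CACGTG, read by clock and other bHLH factors, was in 1 (Slc27a1), or 3.33%, and in 7.15% of all. The stretches around the half-site are shown for the 4 genes whose match lay before the start, in a stretch that touches no annotated exon. They are shown because this receptor family is the one best known to drive the pathway. Each is 5′ to 3′ on the strand of the gene, with the half-site or its reverse complement TGACCT in capitals, for Acadvl (chr11:70015480-70015545, minus strand), Cpt1a (chr19:3323177-3323242, plus strand), Cd36 (chr5:17836089-17836146, minus strand) and Acadm (chr3:153944857-153944893, minus strand).
Acadvl: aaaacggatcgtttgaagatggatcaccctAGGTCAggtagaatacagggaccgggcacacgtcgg
Cpt1a: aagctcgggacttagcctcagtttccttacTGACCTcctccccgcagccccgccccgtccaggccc
Cd36: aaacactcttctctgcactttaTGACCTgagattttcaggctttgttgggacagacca
Acadm: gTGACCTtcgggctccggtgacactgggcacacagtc
A match describes these letters only and shows no binding.

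Averaged over both genotypes, most of the 33 genes stood lower after isoproterenol than after saline, but none passed the threshold. The fitted log2 fold change was below 0 for 31 of 33 genes and above 0 for Cd36 (0.14) and Etfa (0.16). Its median was -0.31, against 0.02 over all genes tested, of which 47.7% were below 0. Summed over the 33 genes, the level was 15705 to 18327 CPM in the 4 isoproterenol libraries and 19687 to 26220.4 CPM in the 4 saline libraries, with no overlap. edgeR's quasi-likelihood test with Benjamini-Hochberg adjustment called 0 of 33, at a background of 0.051% of all genes, and the lowest adjusted p was 0.140. At an unadjusted p under 0.05, 11 were lower, where 4.9% of all genes were, and 0 were higher, where 4.5% were. The 4 isoproterenol libraries lay wholly below the 4 saline libraries for 7 genes (Fabp3, Cpt1b, Cpt2, Hadha, Acaa2, Eci1 and Mlycd), against a background of 2.01%. DESeq2 called 4 (Fabp3, Cpt1b, Acaa2 and Mlycd), against 1.42% of all genes, edgeR without a filter on low counts called 2 (Fabp3 and Acaa2), against 0.547%, and limma-voom called 0. With the GC and length offsets the median was -0.35, 32 of 33 were below 0, and 16 were lower at an unadjusted p under 0.05, where 5.61% of all genes were. Without Set7KO saline replicate 2 only 21 of 33 were below 0, with a median of -0.22, and without replicate 1 the median was -0.50.

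**Figure D1:**
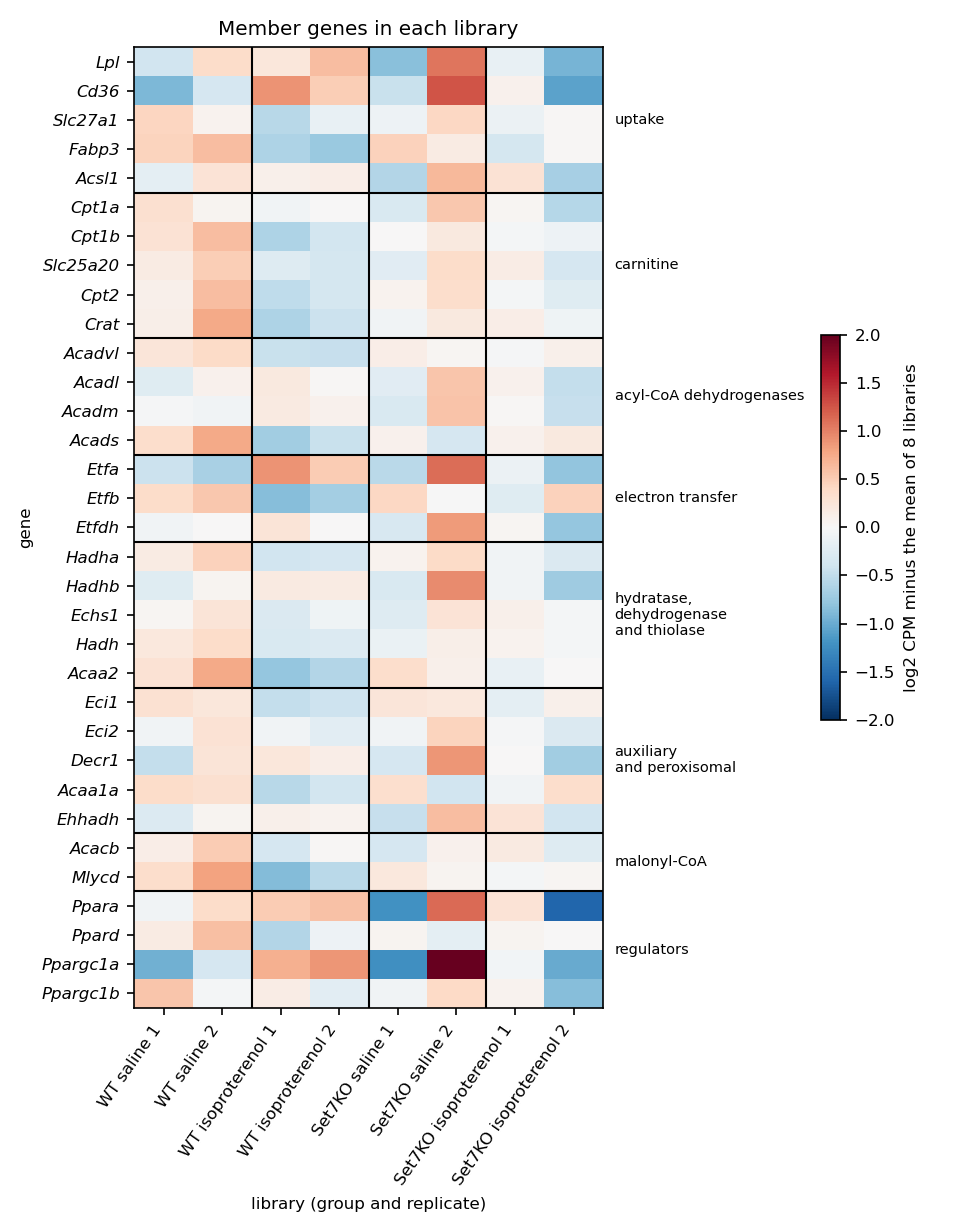
Level of each of the 33 genes (rows, grouped by role) in each of the 8 libraries (columns), as log2 CPM minus the gene's mean over the 8 libraries; red is higher and blue lower. Fabp3, Cpt1b, Cpt2, Hadha, Acaa2, Eci1 and Mlycd are lower in every isoproterenol library than in any saline library, while Set7KO saline replicate 2 holds the highest Cd36, Etfa, Hadhb and Ppargc1a.

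Among the 5 uptake genes, Fabp3 (chromosome 4, 130308595 to 130315463, GRCm38) was the gene with the smallest p of all 33. Its level was 4311 and 4897 CPM in the WT saline libraries, 4390.4 and 3561 CPM in the Set7KO saline libraries, 2083 and 1902 CPM in the WT isoproterenol libraries and 2491 and 3216 CPM in the Set7KO isoproterenol libraries. Every isoproterenol library lay below every saline library, and the fitted level was 1.79-fold lower (log2 fold change -0.84 ± 0.15 SE, edgeR adjusted p = 0.140). Slc27a1, the fatty acid transporter FATP1, read 325 and 253 CPM in WT saline, 225 and 324 CPM in Set7KO saline, 164 and 217 CPM in WT isoproterenol and 223 and 245 CPM in Set7KO isoproterenol. Treated and untreated libraries overlapped (log2 fold change -0.42 ± 0.18 SE, edgeR adjusted p = 0.537). Lpl, lipoprotein lipase, and Acsl1, the main long-chain acyl-CoA synthetase of the heart, had log2 fold changes of -0.26 and -0.11, both with overlapping libraries.

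Cd36, the fatty acid translocase, went the other way in WT, though the GC and length offsets removed most of that rise. It stood at 89.9 and 133 CPM in WT saline and 313 and 237 CPM in WT isoproterenol, but at 124 and 403 CPM in Set7KO saline and 177.8 and 80.4 CPM in Set7KO isoproterenol. The highest of the 8 values was thus in a saline library, Set7KO saline replicate 2. Averaged over genotypes its log2 fold change was 0.14 ± 0.39 SE (edgeR adjusted p = 0.912), and it was -0.12 with the GC and length offsets. Its transcript is the poorest in GC of the 33 genes, at 38.4%.

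The 5 genes of the carnitine shuttle were all below 0, with a median log2 fold change of -0.51. Cpt1b, the muscle form of carnitine palmitoyltransferase 1 and the malonyl-CoA-sensitive gate of the pathway, read 1145 and 1441 CPM in WT saline, 945 and 1073 CPM in Set7KO saline, 612 and 726 CPM in WT isoproterenol and 909.7 and 867 CPM in Set7KO isoproterenol. All 4 isoproterenol values lay below all 4 saline values, by a narrow margin in Set7KO (log2 fold change -0.57 ± 0.15 SE, edgeR adjusted p = 0.261). Cpt2, the matrix-side transferase, read 261 and 372 CPM in WT saline, 255 and 308 CPM in Set7KO saline, 169.9 and 188.8 CPM in WT isoproterenol and 235 and 205 CPM in Set7KO isoproterenol. Its groups did not overlap either (log2 fold change -0.59 ± 0.17 SE, edgeR adjusted p = 0.321). Slc25a20, the carnitine-acylcarnitine translocase of the inner membrane, and Crat, which makes acetylcarnitine, had log2 fold changes of -0.40 and -0.51.

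Cpt1a, the liver form of the gate enzyme, ranged from 33.2 to 72.1 CPM, with 61.7 and 51.7 CPM in WT saline, 40.1 and 72.1 CPM in Set7KO saline, 46.9 and 49.6 CPM in WT isoproterenol and 50.6 and 33.2 CPM in Set7KO isoproterenol. The groups overlapped (log2 fold change -0.33 ± 0.23 SE, edgeR adjusted p = 0.656). Per kb, Cpt1a amounted to 1.58 to 3.38% of Cpt1b in each library. The log2 ratio of Cpt1a to Cpt1b was -5.55 ± 0.40 in the 4 saline and -5.29 ± 0.44 in the 4 isoproterenol libraries (SD, n = 4 each). The difference of 0.26 did not exceed that spread (two-sided exact permutation test over 70 splits, p = 0.371, 0.371 adjusted over 2 ratios, with 0.0286 the smallest p the design allows). The liver form therefore stayed a small part of the pair in all 8 libraries.

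All 4 acyl-CoA dehydrogenases, which open each round of oxidation for chains of different length, were below 0, with a median of -0.26. Acadvl, for very long chains, read 1917 and 2117 CPM in WT saline, 1774 and 1669 CPM in Set7KO saline, 1187 and 1178 CPM in WT isoproterenol and 1586 and 1742 CPM in Set7KO isoproterenol. The lowest values were the WT isoproterenol pair, and Set7KO isoproterenol replicate 2 overlapped the saline libraries (log2 fold change -0.41 ± 0.13 SE, edgeR adjusted p = 0.344). In the annotation 42.9% of Acadvl exon bases lie opposite exons of Dvl2, and strand-specific counting is not stated. Acads, for short chains, read 503 and 669 CPM in WT saline, 416 and 314 CPM in Set7KO saline, 243 and 290.0 CPM in WT isoproterenol and 417 and 451 CPM in Set7KO isoproterenol. Its log2 fold change was -1.14 in WT and 0.25 in Set7KO, and with the GC and length offsets -0.47 and -0.04 (averaged log2 fold change -0.44 ± 0.17 SE, edgeR adjusted p = 0.456). Acadl and Acadm, for long and medium chains, had log2 fold changes of -0.10 and -0.11.

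Electron transfer flavoprotein carries the electrons of all these dehydrogenases, and its alpha and beta chains, Etfa and Etfb, form a dimer. Etfb read 1294 and 1459 CPM in WT saline, 1348 and 1005 CPM in Set7KO saline, 559 and 627 CPM in WT isoproterenol and 853 and 1386 CPM in Set7KO isoproterenol (log2 fold change -0.64 ± 0.19 SE, edgeR adjusted p = 0.327). Etfa read 108 and 93.6 CPM in WT saline, 101 and 319 CPM in Set7KO saline, 272 and 207 CPM in WT isoproterenol and 135 and 85.2 CPM in Set7KO isoproterenol (log2 fold change 0.16 ± 0.34 SE, edgeR adjusted p = 0.878). The partner chains therefore moved in opposite directions between libraries. Per kb, Etfa amounted to 5.31 and 4.07% of Etfb in WT saline, 30.9 and 20.98% in WT isoproterenol, 4.75 and 20.2% in Set7KO saline and 10.0 and 3.90% in Set7KO isoproterenol. The 3 libraries above 20% are those with fewer counts of GC-rich genes, and the transcripts hold 45.0% (Etfa) and 57.1% GC (Etfb). Etfdh, which passes the electrons on to ubiquinone, read 336 and 356 CPM in WT saline, 281 and 637 CPM in Set7KO saline, 420.3 and 355 CPM in WT isoproterenol and 362 and 205 CPM in Set7KO isoproterenol. Its groups overlapped (log2 fold change -0.27 ± 0.28 SE, edgeR adjusted p = 0.747).

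Hadha and Hadhb encode the alpha and beta chains of the mitochondrial trifunctional protein, which carries out the last 3 steps of each round for long chains. The genes lie head to head on chromosome 5, Hadha at 30118304 to 30155162 on the minus strand and Hadhb at 30155248 to 30184593 on the plus strand. The 85 bases between them (chr5:30155163-30155247, GRCm38.p6, plus strand) lie between the GENCODE ends of both genes and are shown because the pair is read outward from there. It is 69.4% GC, with 9 CpG, and holds none of the motifs searched.
Hadha-Hadhb interval: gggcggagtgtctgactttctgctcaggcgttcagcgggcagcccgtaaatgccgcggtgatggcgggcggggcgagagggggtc
Hadha read 1718 and 2095 CPM in WT saline, 1599.6 and 1999 CPM in Set7KO saline, 1179.7 and 1211 CPM in WT isoproterenol and 1456 and 1255 CPM in Set7KO isoproterenol. All treated libraries lay below all saline libraries (log2 fold change -0.54 ± 0.15 SE, edgeR adjusted p = 0.292). Hadhb read 542 and 665 CPM in WT saline, 518 and 1235 CPM in Set7KO saline, 727 and 715 CPM in WT isoproterenol and 610.5 and 393 CPM in Set7KO isoproterenol, with overlap (log2 fold change -0.27 ± 0.28 SE, edgeR adjusted p = 0.735). The level of Hadha per kb was 239.6 and 238% of that of Hadhb in WT saline, 122.5 and 128% in WT isoproterenol, 233 and 122% in Set7KO saline and 180.1 and 241% in Set7KO isoproterenol. The same 3 libraries stood apart as for the flavoprotein pair. With the offsets the log2 ratio of Hadha to Hadhb no longer set them apart (0.84 to 1.02, against 0.49 to 1.14 in the other 5), whereas that of Etfa to Etfb still did (-3.01 to -2.52, against -4.11 to -3.24). The transcripts hold 51.3% (Hadha) and 39.1% GC (Hadhb), and with the GC and length offsets the log2 fold changes of both genes were near each other, at -0.56 and -0.57. These pair ratios were picked after their values were seen and carry no test. The part of GC-related technical variation in them was not tested further.

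**Figure D2:**
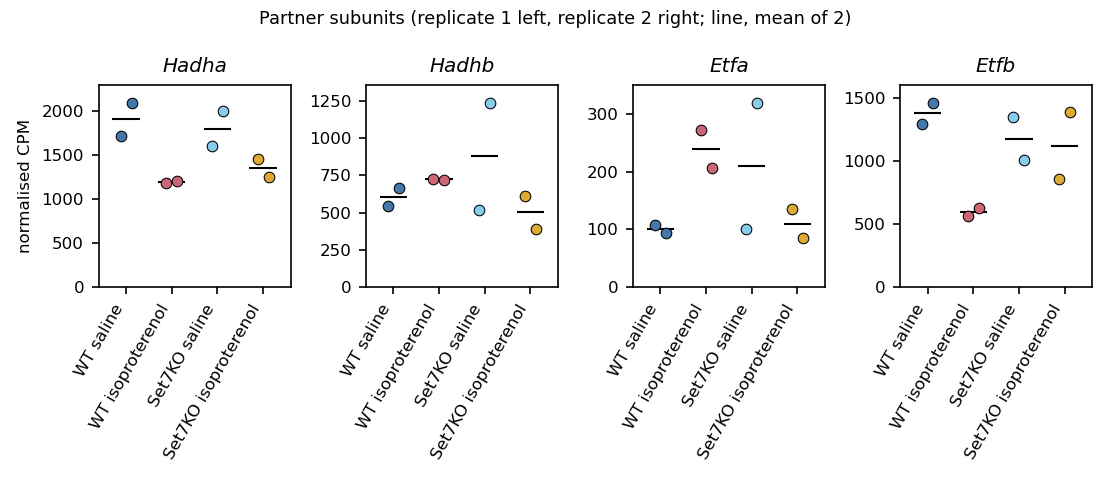
Normalised CPM (vertical axes, from 0) of the trifunctional protein genes Hadha and Hadhb and the flavoprotein genes Etfa and Etfb in the 4 groups; points are libraries and lines the mean of 2. Hadha and Etfb are lowest in the WT isoproterenol pair, while Hadhb and Etfa are highest in Set7KO saline replicate 2 (1235 and 319 CPM).

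Acaa2, the matrix 3-ketoacyl-CoA thiolase, had the second smallest p. It read 1516 and 2096 CPM in WT saline, 1583 and 1339.7 CPM in Set7KO saline, 732 and 826 CPM in WT isoproterenol and 1129.5 and 1258 CPM in Set7KO isoproterenol. The groups did not overlap, and the fitted level was 1.68-fold lower (log2 fold change -0.75 ± 0.16 SE, edgeR adjusted p = 0.190). The short-chain enzymes Echs1, a hydratase, and Hadh, a dehydrogenase, had log2 fold changes of -0.17 and -0.28.

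Auxiliary enzymes prepare unsaturated chains for oxidation. Eci1, the mitochondrial enoyl-CoA isomerase, read 429.7 and 404 CPM in WT saline, 412 and 402 CPM in Set7KO saline, 248 and 261 CPM in WT isoproterenol and 302 and 371 CPM in Set7KO isoproterenol. Its saline values were close together and all above the treated ones (log2 fold change -0.49 ± 0.14 SE, edgeR adjusted p = 0.313). Eci2, a second isomerase, read 138 and 176 CPM in WT saline, 137 and 197 CPM in Set7KO saline, 137 and 125 CPM in WT isoproterenol and 142 and 118 CPM in Set7KO isoproterenol, with overlap (log2 fold change -0.31 ± 0.18 SE, edgeR adjusted p = 0.617). Decr1, the dienoyl-CoA reductase, and the peroxisomal genes Acaa1a and Ehhadh had log2 fold changes of -0.22, -0.34 and -0.01. Acaa1a has a near-identical neighbour, Acaa1b, so its counts are uncertain.

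Acacb, the acetyl-CoA carboxylase of the mitochondrial surface, makes the malonyl-CoA that blocks Cpt1, and Mlycd, malonyl-CoA decarboxylase, removes it. Mlycd read 244 and 334 CPM in WT saline, 222 and 199 CPM in Set7KO saline, 105 and 132 CPM in WT isoproterenol and 186 and 198 CPM in Set7KO isoproterenol. The treated libraries lay below the saline ones, in Set7KO by under 2 CPM between the nearest values (log2 fold change -0.71 ± 0.16 SE, edgeR adjusted p = 0.207). Acacb read 736 and 955 CPM in WT saline, 529 and 707 CPM in Set7KO saline, 532 and 681 CPM in WT isoproterenol and 755 and 561 CPM in Set7KO isoproterenol, with overlap (log2 fold change -0.19 ± 0.18 SE, edgeR adjusted p = 0.726). Taken as a ratio within each library, per kb, Acacb amounted to 93.1 and 88.2% of Mlycd in WT saline, 157 and 159% in WT isoproterenol, 73.6 and 109% in Set7KO saline and 125 and 87.3% in Set7KO isoproterenol. The log2 ratio was -0.15 ± 0.24 after saline and 0.36 ± 0.40 after isoproterenol (SD, n = 4 each). The difference of 0.51 did not pass a two-sided exact permutation test (p = 0.114, 0.229 adjusted over 2 ratios). Under the same exact permutation test it came to 0.70 (p = 0.0286, here the smallest p possible) without Set7KO isoproterenol replicate 2, and to 0.43 (p = 0.0286) with the GC and length offsets.

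**Figure D3:**
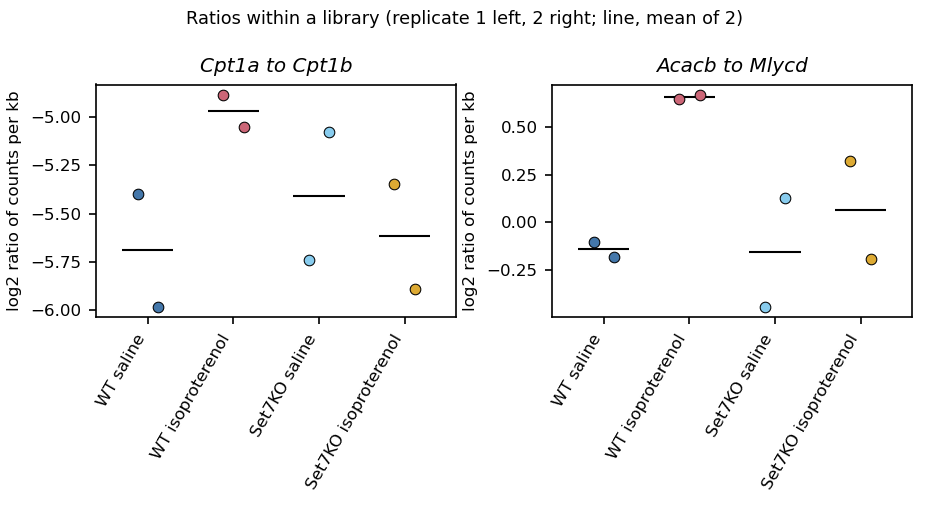
Log2 ratio of counts per kb of Cpt1a to Cpt1b and of Acacb to Mlycd within each library, by group; points are libraries and lines the mean of 2. The WT isoproterenol pair has the highest Acacb to Mlycd ratios (157 and 159%), and Cpt1a lies far below Cpt1b in every library.

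The 4 regulators were all below 0 in the averaged contrast (median -0.25), and 0 of 4 had an unadjusted p under 0.05. Ppard read 49.6 and 67.3 CPM in WT saline, 46.0 and 38.8 CPM in Set7KO saline, 29.6 and 41.5 CPM in WT isoproterenol and 46.0 and 44.5 CPM in Set7KO isoproterenol (log2 fold change -0.31 ± 0.18 SE, edgeR adjusted p = 0.617). Ppargc1b read 22.7 and 15.1 CPM in WT saline, 14.7 and 20.5 CPM in Set7KO saline, 17.1 and 13.4 CPM in WT isoproterenol and 16.2 and 8.60 CPM in Set7KO isoproterenol (log2 fold change -0.41 ± 0.26 SE, edgeR adjusted p = 0.635). Both genes overlapped between treatments. Ppara, the receptor that fatty acids and fibrates activate, varied most within Set7KO, where it read 10.2 and 51.8 CPM in the saline and 28.5 and 7.83 CPM in the isoproterenol libraries. In WT the saline libraries read 22.6 and 30.3 CPM and the treated ones 33.6 and 35.6 CPM (averaged log2 fold change -0.19 ± 0.52 SE, edgeR adjusted p = 0.904). Ppargc1a, encoding PGC-1alpha, read 15.7 and 24.2 CPM in WT saline, 49.6 and 55.9 CPM in WT isoproterenol, 13.0 and 122 CPM in Set7KO saline and 29.2 and 15.1 CPM in Set7KO isoproterenol. Both WT isoproterenol libraries exceeded both WT saline libraries, as for 6927 of the 17636 genes tested. The highest value was again Set7KO saline replicate 2 (averaged log2 fold change -0.10 ± 0.57 SE, edgeR adjusted p = 0.957). Without that library the averaged log2 fold changes of Ppara and Ppargc1a were 0.60 and 1.08, and neither passed (edgeR adjusted p = 0.362 and 0.0902).

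In WT the response was wider and split. Of the 33 genes, 21 were below 0 and 12 above, with a median log2 fold change of -0.48, against 0.06 over all genes. The edgeR test called 0 of 33 (background 0% of all genes), with a lowest adjusted p of 0.0941. At an unadjusted p under 0.05, 16 were lower, against 13.3% of all genes, and 2 were higher, Cd36 and Etfa, against 18.5%. The 3 smallest p-values belonged to Fabp3 (2.31-fold lower, log2 fold change -1.21 ± 0.21 SE), Mlycd (2.44-fold lower, -1.29 ± 0.23) and Acaa2 (2.32-fold lower, -1.21 ± 0.23), each with an edgeR adjusted p of 0.0941. Acads, Etfb, Crat and Cpt1b followed, at -1.14, -1.21, -0.99 and -0.95. Ppargc1a, Cd36 and Etfa had the largest positive values, at 1.41, 1.30 and 1.25. The number called varied with the setting. With no filter on low counts 7 were called, against 5.2% of all genes. Set7KO saline libraries are in neither arm of this contrast, but leaving one out changes the shared estimate of spread and the set of genes tested. Without replicate 1 of that group 15 of 33 were called, 12 of them lower against 7.89% of all genes. Without replicate 2, 16 were called, 13 of them lower against 9.11%. DESeq2 on all 8 libraries called 15, and limma-voom called 0. Of those 15, 14 were lower, against 8.93% of the 14216 genes to which DESeq2 gave an adjusted p. With the GC and length offsets and either library left out, 0 were called.

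The sign of the WT response followed GC content. Of the 17 genes at or above the median transcript GC content of 51.3%, 16 were below 0, with a median log2 fold change of -0.81. Of the 16 genes under it, 5 were below 0, with a median of 0.18. Across the 33 genes, which are not independent and share their libraries, the WT log2 fold change correlated with GC content at Pearson's r = -0.82 and Spearman's rho = -0.82. With the offsets these came to -0.02 and 0.12, which follows from their design, since they are fitted to remove GC trends. The medians of the 2 GC classes were then -0.47 and -0.61, and 9 genes changed sign. Lpl went from 0.40 to -0.68, Hadhb from 0.26 to -0.98, Etfdh from 0.16 to -0.79 and Acsl1 from 0.05 to -0.87. With offsets 28 of 33 genes were below 0 (median -0.52), 16 were lower at an unadjusted p under 0.05, against 8.88% of all genes, and 0 were called (lowest edgeR adjusted p = 0.181). Under the offsets Fabp3, Mlycd and Acaa2 stood at -0.70, -0.66 and -0.84 in WT, and Cd36 at 0.12. In WT the GC trend and the treatment cannot be told apart by design, since both treated libraries carry it.

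**Figure D4:**
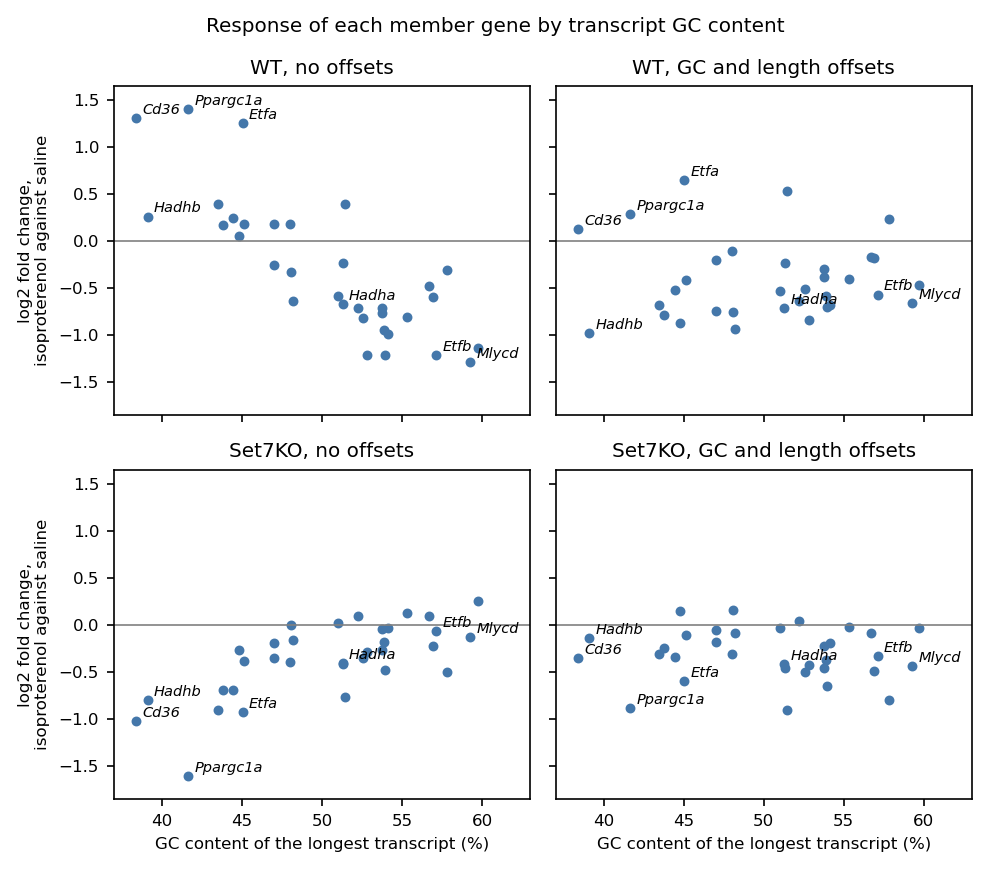
Log2 fold change of each of the 33 genes for isoproterenol against saline (vertical axes) by GC content of its longest transcript in percent (horizontal axes), in WT (top) and Set7KO (bottom), without (left) and with (right) GC and length offsets. Without offsets the points slope down in WT (r = -0.82) and up in Set7KO (r = 0.70). With offsets, which are fitted to remove such slopes, neither slope remains (-0.02 and -0.08) while most points stay below 0.

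In Set7KO hearts, 28 of 33 genes were below 0 after isoproterenol, with a median log2 fold change of -0.29 (all genes, -0.04). With the offsets 30 were below 0, and 3 were lower at an unadjusted p under 0.05, against 4.45% of all genes. Without offsets the edgeR test called 0 (background 0%), and 0 had an unadjusted p under 0.05 in either direction, against 9.66% of all genes; DESeq2 and limma-voom called 0. The smallest p belonged to Fabp3, at 1.39-fold lower (log2 fold change -0.48 ± 0.21 SE), followed by Hadhb (-0.80 ± 0.39) and Ppargc1a (-1.61 ± 0.82), with edgeR adjusted p-values of 0.520, 0.556 and 0.571. The Fabp3 values did not overlap between treatments, while those of Hadhb and Ppargc1a did. Of the 17636 genes tested, 3301 were likewise lower without overlap. The direction of the median depended on Set7KO saline replicate 2. Without it the median was 0.06, with 14 of 33 below 0, and Ppargc1a stood at 0.78. Without replicate 1 it was -0.48, and 2 of 33 (Etfa and Ppargc1a) were called, against 2.66% of all genes. Without Set7KO isoproterenol replicate 1 or 2 the median was -0.46 or -0.17. Offsets left the median at -0.31 with all libraries and at 0.05 without replicate 2.

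**Figure D5:**
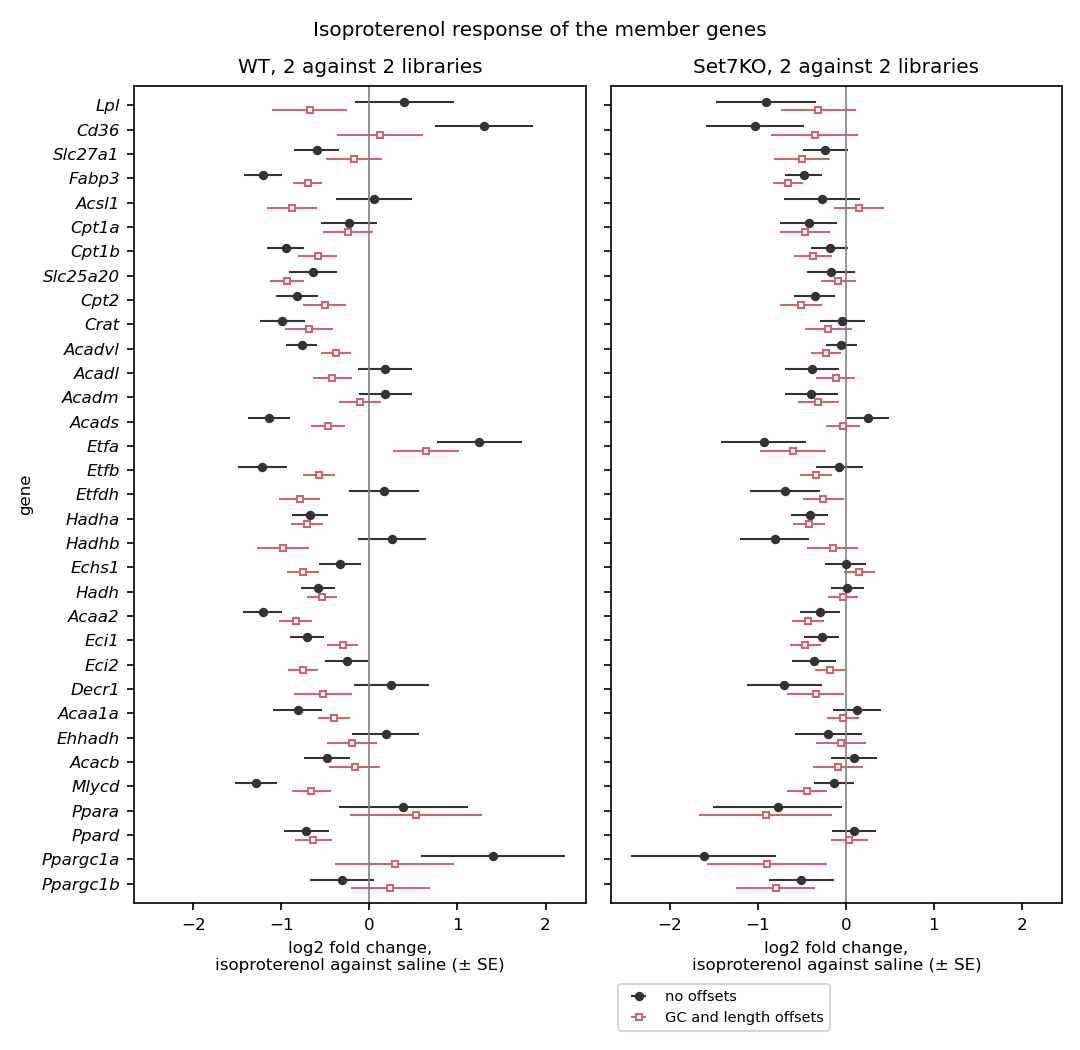
Log2 fold change for isoproterenol against saline (horizontal axes, bars ± SE) of each of the 33 genes in WT (left) and Set7KO (right), without offsets (filled) and with GC and length offsets (open). In WT, Mlycd, Etfb, Acaa2, Fabp3 and Acads lie below -1 without offsets and Hadhb, Lpl and Etfdh cross to below 0 with them, while in Set7KO most genes lie between -1 and 0.

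Between genotypes, no gene of the pathway passed. After saline the median Set7KO-minus-WT log2 fold change was -0.08, 0 of 33 were called (background 0.00567%, which is Setd7 alone), and 1 gene, Acads, was lower at an unadjusted p under 0.05, where 2.46% of all genes were. Acads was 1.61-fold lower in Set7KO (-0.68 ± 0.24 SE), Cd36 was higher by 1.24 ± 0.56 and Etfa by 1.06 ± 0.48, with edgeR adjusted p-values of 0.483, 0.484 and 0.485. Cd36 and Etfa rested on replicate 2 of Set7KO saline, since replicate 1 (124 and 101 CPM) lay within or beside the WT pair. Without replicate 1 the median was 0.11 and 2 were called (Etfa and Ppargc1a, both higher), against 5.64% of all genes. Without replicate 2 the median was -0.32. With the offsets the median was -0.06, 15 of 33 genes changed sign, and Acads, Cd36 and Etfa stood at -0.28, 0.30 and 0.55. Acads then had an unadjusted p of 0.184 in edgeR's test.

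After isoproterenol the median Set7KO-minus-WT log2 fold change was 0.18, and 0 of 33 were called (background 0.00567%). At an unadjusted p under 0.05, 6 genes were higher in Set7KO, against 7.22% of all genes, and 1 (Etfa) was lower, against 12.7%. The smallest p-values were those of Etfb (0.92 ± 0.27 SE), Mlycd (0.70 ± 0.23) and Acads (0.70 ± 0.24), each with an edgeR adjusted p of 0.229. All 3 had both Set7KO values above both WT values, as did 5612 of the 17636 genes tested. All 3 transcripts are at least 57.1% GC. With the offsets the same differences were 0.30, 0.20 and 0.15, and the median was 0.15. The median without offsets rested partly on single libraries, at 0.017 without Set7KO isoproterenol replicate 1 and 0.10 without WT isoproterenol replicate 1. Averaged over treatments the median was 0.03 (-0.07 to 0.14 with a library left out), 0 were called (background 0.00567%) and 0 had an unadjusted p under 0.05, against 1.56% of all genes. Etfb (0.35 ± 0.19 SE), Eci1 (0.18 ± 0.14) and Acadvl (0.13 ± 0.13) had the smallest p-values, at an edgeR adjusted p of 1.00. With the offsets the median was 0.06 and these 3 genes stood at 0.19, 0.12 and 0.09. In each of these 3 genotype comparisons DESeq2 and limma-voom also called 0.

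The difference of the responses, Set7KO minus WT, had a median log2 value of 0.33, and 0 of 33 were called (background 0%; lowest edgeR adjusted p = 0.0883). At an unadjusted p under 0.05, 9 were above 0, against 12% of all genes, and 3 (Cd36, Etfa and Ppargc1a) were below 0, against 18.6%. Acads (1.39 ± 0.34 SE, edgeR adjusted p = 0.0883), Mlycd (1.15 ± 0.33, 0.0927) and Etfa (-2.18 ± 0.68, 0.104) had the smallest p-values. DESeq2 called 6, against 16.3% of the 14216 genes to which it gave an adjusted p. With no filter on low counts edgeR called 4, against 5.8% of 29066 genes, and limma-voom called 0. Without Set7KO saline replicate 1 the median was 0.12 and 10 were called, against 31.6%, a share close to that of the members. Across the 33 genes the difference of responses ran with GC content (r = 0.81). With the offsets, which are fitted to remove such a trend, it did not (r = -0.03). The offsets brought the median to 0.22 and Acads, Mlycd and Etfa to 0.43, 0.22 and -1.24, with edgeR adjusted p-values of 0.501, 0.782 and 0.356. At 2 libraries a group, a p that misses the threshold does not show that the genotypes respond alike.

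Around these 33 genes lay 92 others of fatty acid handling, sorted into 6 lists, of which 91 were tested. Averaged over genotypes, 2 passed, where 0.051% of all genes did, and the median was -0.09. At an unadjusted p under 0.05, 16 were lower (4.9% of all genes) and 4 were higher (4.5%). Angptl4, a secreted inhibitor of lipoprotein lipase and a target of the PPARs, fell 8.27-fold. It read 15.4 and 29.997 CPM in WT saline, 16.8 and 36.5 CPM in Set7KO saline, 1.32 and 1.93 CPM in WT isoproterenol and 4.34 and 6.62 CPM in Set7KO isoproterenol (log2 fold change -3.05 ± 0.35 SE, edgeR adjusted p = 0.0406, 0.0455 with offsets). Acot1, which hydrolyses acyl-CoA in the cytosol, fell 3.07-fold, from 35.9 and 41.5 CPM in WT saline and 33.5 and 37.9 CPM in Set7KO saline to 9.58 and 9.93 CPM and to 15.4 and 14.7 CPM (log2 fold change -1.62 ± 0.15 SE, edgeR adjusted p = 0.0189, 0.00538 with offsets). Neither gene's treated and untreated libraries overlapped. Both calls were lost in 6 of 8 fits with a library left out (any but a Set7KO saline library; edgeR adjusted p up to 0.324 for Angptl4 and 0.217 for Acot1), while the log2 fold changes ranged from -3.28 to -2.72 and from -1.67 to -1.58. In the hydrolysis, uncoupling and ketone list, 6 of 13 were lower and 2 higher at an unadjusted p under 0.05. After Acot1 its smallest p-values were those of Ucp3, a mitochondrial uncoupling protein (-2.03 ± 0.28 SE), and Acot2, the matrix thioesterase (-1.09 ± 0.15), both with an edgeR adjusted p of 0.0769. Acot1 and Acot2 are near-identical in sequence, so the split of reads between them is uncertain. In the lipid store list 7 of 12 were lower and 1 higher. Plin5, which coats lipid droplets at mitochondria, stood at -0.998 ± 0.16 and Mgll, monoacylglycerol lipase, at -0.55 ± 0.15, while Cidea, a lipid droplet protein, stood at 1.09 ± 0.20 (edgeR adjusted p = 0.0973, 0.313 and 0.151). Among the uptake neighbours 3 of 15 were lower and 1 higher, among them Gpihbp1, the endothelial anchor of lipoprotein lipase (-0.67 ± 0.24), and Dbi, an acyl-CoA binding protein (-0.65 ± 0.18). None of the 4 carnitine neighbours (smallest p-values Crot, Slc25a45 and Cpt1c, at 0.44, -0.21 and 0.18), of the 22 oxidation neighbours (Acaa1b, Decr2 and Abcd2, at -0.39, 0.30 and 0.64) or of the 25 regulator neighbours (Acaca, Prkaa1 and Pprc1, at 0.38, 0.57 and -0.33) had an unadjusted p under 0.05.

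Markers of the cell types in the sample were read beside these results. The summed level of 12 cardiomyocyte markers was 112752 and 114267 CPM in WT isoproterenol and 127548 to 177577 CPM in the other 6 libraries. The single markers were split in WT, with log2 fold changes from -1.27 to 1.41. At an unadjusted p under 0.05, 4 were lower (13.3% of all genes) and 2 higher (18.5%). Their median in WT was -0.38, and -0.16 with the GC and length offsets. The median log2 fold change of 16 genes of mitochondrial content was -0.12 averaged over genotypes and -0.28 in WT. With the offsets it was -0.11 and -0.28. At an unadjusted p under 0.05, 3 of these 16 genes were lower in WT (13.3% of all genes). With the offsets 6 were lower in WT (8.88% of all genes). In bulk heart samples fewer cardiomyocytes and less RNA per cardiomyocyte cannot be told apart, and both WT isoproterenol libraries also carry the GC trend. At an unadjusted p under 0.05, 3 of 6 fibroblast markers were higher after isoproterenol (4.5% of all genes). With the offsets 1 of 6 was, and the share of all genes was not taken there. Of 8 endothelial and of 6 macrophage markers, 1 each was lower (4.9%) and 0 were higher. The 5 sex-linked genes summed to 34.0 and 34.3 CPM in WT isoproterenol and to 36.5 CPM in Set7KO saline replicate 2. In the other 5 libraries they summed to 6.43 to 16.0 CPM. In WT the 4 tested were all higher at such a p (18.5% of all genes), and 2 with the offsets. The adipocyte markers summed to 313 to 590 CPM, nearly all of it Fabp4 (216 to 523 CPM) and Lipe (47.5 to 112 CPM), which other heart cells also express. Cfd reached 4.85 CPM, Adipoq, Plin1 and Cidec were at or under 1.097 CPM, and Lep and Ucp1 were at 0 in all 8 libraries. The skeletal muscle markers summed to 1.36 to 4.55 CPM, with Myh4 at or under 0.41 CPM, and the hepatocyte markers to 0.842 to 4.65 CPM, with Alb at 0 in 7 libraries. All 5 erythroid and 4 of 5 lymphocyte markers tested were lower after isoproterenol at an unadjusted p under 0.05 (4.9% of all genes), summing to 1254 to 4349 against 3767 to 10516 CPM and to 1.097 to 5.63 against 4.37 to 7.67 CPM. The median log2 fold change of the lymphocyte markers was -2.42 in WT and -0.26 in Set7KO. At an unadjusted p under 0.05, 5 of 5 were lower in WT (13.3% of all genes). In Set7KO 0 of 5 had such a p (9.66% in either direction). Of 10 clock genes, 2 were lower (4.9% of all genes) and 2 higher (4.5%) after isoproterenol at an unadjusted p under 0.05, averaged over genotypes. Dbp, a clock output gene, read 378 and 47.6 CPM in WT saline and 46.8 and 58.3 CPM in Set7KO saline. It read 243 and 219 CPM in WT isoproterenol and 342 and 469 CPM in Set7KO isoproterenol, and so differed most within WT saline. Of the saline libraries, 3 of the 4 were thus under 60 CPM, and the other 5 libraries were at or over 219 CPM. The part of cell make-up or time of collection in the results was not tested.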

How the data were processed

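The deposited values are read counts per gene, 1 column per library, and were used as deposited. Per the labels' protocols, heart RNA was extracted with TRIzol and libraries were made with a stranded mRNA kit and sequenced with single reads. GRCm38 and the tools HISAT, HISAT2, StringTie and edgeR are listed in the submitters' processing notes, with neither version nor role; whether counting used strand is not given. Symbols, coordinates, length and GC content came from GENCODE M21, which named 55227 of 55487 identifiers.

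Group means of the 4 groups were estimated jointly from the 8 libraries in edgeR 4.0.16 under R 4.3.3 (TMM, filterByExpr, quasi-likelihood F-tests, two-sided), with Benjamini-Hochberg adjustment over 17636 genes in each of 7 contrasts and a threshold of 0.05. SEs derive from the F statistic. Levels per kb use the union of exons. Offsets were natural splines with 5 degrees of freedom of GC content and of length. Ratios of counts per kb were compared by exact permutation. Alternatives used DESeq2 1.42.0, limma-voom (limma 3.58.1), other normalizations and filters, and each library left out. Offsets combined with a left-out Set7KO saline library, the alternatives for named genes outside the 33, and the ratios within the trifunctional protein and flavoprotein pairs, were chosen after seeing the data. The code was checked on simulated counts that vary less between libraries than these data. That check does not give the error rate of the fit here.

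Members, lists and tests were chosen with earlier results of these data known. Values in every library are given for members past the threshold, the 2 with the smallest p in each role (averaged isoproterenol contrast), the 3 with the smallest p in each other contrast, and Cpt1a, Cpt1b, Cd36, Ppara, Ppargc1a, Acacb and Mlycd; of other pathway genes, the 3 with the smallest p in each list and those that pass.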

Additional observations from a re-analysis of the deposited data

Results flagged for a closer look

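Each of the 33 genes was examined for a library far from the others, by Dixon's test in the 4 saline and in the 4 isoproterenol libraries. Of 66 such groups 5 held one, and chance alone would give about 1 in 20. In 4 of the 5 the library was Set7KO saline replicate 2. It was the highest saline library for Cd36 (403 CPM), Etfa (319 CPM) and Ppargc1a (122 CPM), whose transcripts hold 38.4, 45.0 and 41.7% GC, and the lowest for Acaa1a (94.8 CPM), whose transcript holds 55.3% GC. Among the treated libraries, Set7KO isoproterenol replicate 1 was the highest for Slc25a20 (192 CPM). Group means of these 5 genes rest on those values.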

How the results depend on the processing

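No paired analysis was possible because the labels carry no replicate numbers shared between groups, and the letters in the titles, whose meaning is not stated, differ between the groups but for 1 library. With 2 libraries a group, a left-out library leaves a lone one that is assumed to vary like the other groups. Counts of members called were 0 of 33 in every contrast as reported. With no filter on low counts they came to 2 (averaged isoproterenol contrast, 0.547% of all genes called), 7 (WT, 5.2%) and 4 (interaction, 5.8%). With DESeq2 they came to 4 (1.42%), 15 (19.1% of the 14216 genes given an adjusted p) and 6 (16.3% of 14216). With a library left out they were 0 to 16 in WT (20.7% of all genes at 16), 0 to 2 in Set7KO (2.66% at 2), 0 to 2 for Set7KO against WT after saline (5.64% at 2) and 0 to 10 for the interaction (31.6% at 10). The cause was not tested. Without Set7KO saline replicate 2 the members' median was 0.059 in Set7KO and -0.32 for Set7KO against WT after saline, and with offsets as well 0.045 and -0.32; leave-one-out medians ranged from -0.48 to 0.059 and from -0.32 to 0.11. With offsets and without Set7KO saline replicate 1 the interaction median was 0.014. The Acacb to Mlycd difference ranged from 0.41 to 0.70 with a library left out, with p = 0.0286 (exact permutation) at 0.70, and was 0.43 with p = 0.0286 with offsets.

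Signs turned for genes that did not pass, and the cause was not tested. In the averaged isoproterenol contrast with a library left out, Etfdh ranged from -0.51 to 0.084, Cd36 from -0.21 to 0.68 (-0.17 without Set7KO saline replicate 1), Ppara from -0.81 to 0.60 (0.13 without Set7KO isoproterenol replicate 2) and Ppargc1a from -0.53 to 1.08 (0.05 without WT saline replicate 2, 0.09 without Set7KO isoproterenol replicate 2). Ppargc1a was 0.22 with limma-voom and Cd36 -0.12 with offsets. With offsets and without Set7KO saline replicate 1, Cd36 was -0.33. With offsets and without Set7KO saline replicate 2, Acacb was 0.085, Ppargc1b 0.022, Ppara 0.65 and Ppargc1a 0.55, Hadhb 0.12 and Ppargc1a 0.82 in Set7KO, and Cd36 -0.31 and Etfa -0.18 between genotypes after saline. In Set7KO, Ppargc1a ranged from -2.47 to 0.78 with a library left out, the latter without Set7KO saline replicate 2. Cpt1c turned to -0.028 without WT saline replicate 2 and -0.022 without Set7KO saline replicate 2, and ranged up to 0.45 with a library left out. The calls of Angptl4 and Acot1 were lost in 6 of 8 such fits, and that of Angptl4 also with offsets and without Set7KO saline replicate 2 (log2 fold change -2.70, edgeR adjusted p = 0.0655). Depth limits the members little, with at least 214 counts in each library, whereas the 8 libraries leave 4 residual degrees of freedom. The floor of 214 does not cover genes outside the members. Among these, the lowest count in any library was 58 for Angptl4 and 102 for Cpt1c.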
